A study of Mus musculus with 4 samples.

Results

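The 35 genes described here encode the enzymes and transporters of glycolysis together with genes of the hypoxia response. They were chosen by name, with earlier results of these data known, so the shares below that set them beside all genes are descriptions. They were matched by mouse Ensembl identifier to the GENCODE M21 annotation of mm10. All 35 had a row among the 52636 genes of the deposited table. Aldoa had 2 rows, of which the longer gene model was used; the other, a model next to it on chromosome 7, held 12.9 to 25.2 normalized counts. RNA of the entire lung of C57BL/6 embryos was sequenced at embryonic day 14.5. 2 libraries were wild type (Control 1 and 2) and 2 carried a conditional Yap knockout, which the series title places in the epithelium (Yap CKO 1 and 2). The labels give neither the Cre driver nor the deleted part of Yap1, and they do not say whether a library was 1 embryo or a pool, so each p-value rests on the spread among these 4 libraries, which may be technical.

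Glycolysis splits glucose into pyruvate in the cytosol and gains ATP without oxygen, and lactate dehydrogenase then regenerates the NAD+ it needs. When oxygen is short, the prolyl hydroxylases that mark the HIF alpha subunits for degradation slow down, HIF accumulates, and glycolytic enzymes, glucose transporters and Vegfa are transcribed more. The fetal lung develops at low oxygen, and its epithelium is a source of VEGF for the growing capillaries. The values are normalized read counts of the whole organ, so fewer cells of a type and less RNA per cell cannot be told apart.

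Depth ranged from 17756301 to 21333878 reads per library. Yap1 was measured at 5686 and 3467 normalized counts in the controls and at 3209 and 4483 in Yap CKO (adjusted p = 0.683, limma), so its overlapping values do not check the labels. Control 1 differed from the other 3 libraries in more than these genes. It was the only library with low Xist (42.6, against 42729 to 50045) and high Ddx3y (1726, against 5.77 to 16.4). The 15 heart muscle markers all had reads and summed to 1853 and 51279 normalized counts in the 2 controls and to 11522 and 2146 in the 2 knockouts. The 10 genes of handling stress and heat shock summed to between 4026 and 4895 in the 4 libraries, and the 10 lung epithelial markers to between 15511 and 17420. Control 1 was the highest library in the epithelial sum and for 7 of its 10 markers. The 6 smooth muscle markers all had both controls above both knockouts, with sums of 17677 and 19619 against 7259 and 10139. The 6 intestinal secretory markers summed to 16.5 and 26.9 in the controls and to 2426 and 1743 in Yap CKO. The 8 lung mesenchyme markers summed to 62139 and 70447 in the controls and to 56011 and 50319 in Yap CKO. For the 7 skeletal muscle markers the sums were 1165 and 2286 against 907 and 659. The sum of the 7 cartilage markers went the other way, at 2489.5 and 2205 against 3629 and 2836. Both controls were above both knockouts for 4 of the 8 mesenchyme, 1 of the 7 skeletal muscle and 2 of the 7 cartilage markers. The part of sex, epithelium, mesenchyme, cartilage, heart tissue, skeletal muscle, smooth muscle and the secretory cells in the results below was not tested.

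1 of the 35 genes passed the test between the groups. Gapdh (ENSMUSG00000057666, chr6:125161715-125166467, minus strand, mm10), the triose phosphate dehydrogenase of glycolysis, fell in Yap CKO, and none rose. Over all 19472 genes tested 1.15% fell and 1.19% rose (limma, Benjamini-Hochberg adjusted p under 0.05), and 1 of 35 is 2.86%. On the recovered reads, edgeR also called Gapdh alone, where 1.02% of all genes fell and 1.05% rose. DESeq2 called 9 falls (Hk1, Gpi1, Aldoa, Tpi1, Gapdh, Pgam1, Eno1, Pkm and Egln1) and no rise, where 3.02% of all genes fell and 2.25% rose. Most of the other members were nevertheless lower in Yap CKO. The log2 difference (Yap CKO minus control) was negative for 32 of 35 (30 with equal library totals or quantile normalization, where Ldhb and Vegfa turned), with a median of -0.45, against 50.6% negative and a median of -0.005 over all genes tested. At an unadjusted p under 0.05, 15 of 35 were lower and 0 higher, where 9.52% of all genes were lower. The number of negative signs depended on the control used. When both knockouts were set against Control 2 alone, 23 members had a negative difference and 12 a positive one. Set against Control 1 alone, 31 were negative and 4 positive. Dropping Yap CKO 1 left 32 negative signs, and dropping Yap CKO 2 left 29.

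**Figure D1:**
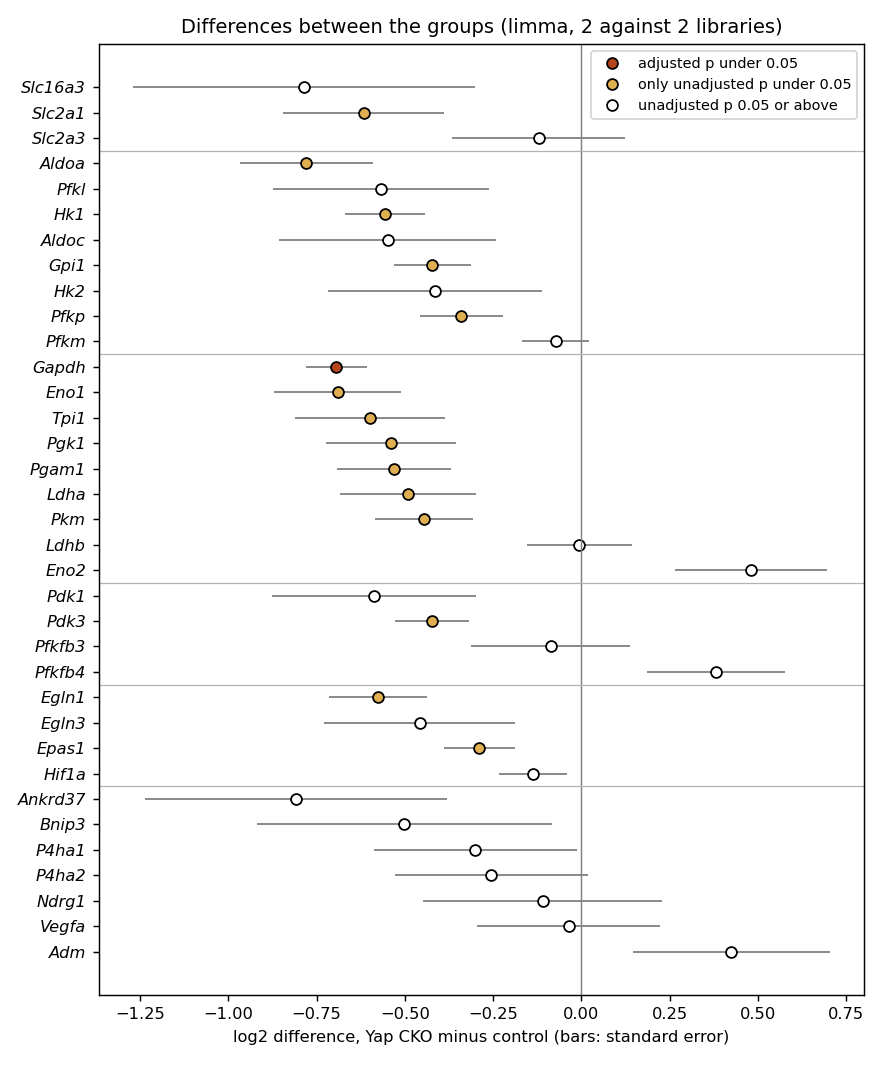
Log2 difference in normalized count (Yap CKO minus control, horizontal axis) of the 35 members, with the standard error as bars and members grouped by role between the grey lines, from limma on 2 against 2 libraries. Gapdh (-0.69) is the filled red point, yellow points have an unadjusted p under 0.05 only, and Eno2, Pfkfb4 and Adm are the 3 members right of 0.

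The libraries of the control group differed from each other, as the values per member below show. In addition, many members share their sequence with copies elsewhere in the genome. Most are processed pseudogenes of the later enzymes of glycolysis, made when an mRNA was copied back into the genome. A search of the annotated transcripts for matches (at least 85% identity over at least 200 bases and 50% of the copy) found 253 such copies with reads, belonging to 12 members, and 234 of them had a single exon. In the Gapdh lines below, the first gives 60 bases of its mRNA across the border of exons 4 and 5 (chr6:125162478-125163040, minus strand, mm10), where the capitals mark 3 bases on each side of the border. The second is the same stretch in Gapdh-ps15, a processed pseudogene on the Y chromosome (chrY:38620272-38620331, plus strand). The lines for Pgk1, phosphoglycerate kinase, are its border of exons 6 and 7 and the copy Pgk1-rs7 (chr12:10899571-10899630, minus strand). Exons 6 and 7 of Pgk1 with their intron span chrX:106197842-106199761 (plus strand), while the positions given for the copies are those of the 60 bases. The lines are shown because the copies match the spliced mRNA without a single difference in these windows, while the genes themselves carry an intron of 134 bases (Gapdh) and 1685 bases (Pgk1) at the border.
Gapdh: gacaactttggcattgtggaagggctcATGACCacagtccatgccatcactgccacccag
Gapdh-ps15: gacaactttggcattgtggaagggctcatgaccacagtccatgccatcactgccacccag
Pgk1: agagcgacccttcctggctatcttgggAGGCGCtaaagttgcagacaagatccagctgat
Pgk1-rs7: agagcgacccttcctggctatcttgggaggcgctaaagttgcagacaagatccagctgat

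Of all 50-base windows of the coding sequence, 100% of those of Pgk1 and of Pgam1 (phosphoglycerate mutase) also occurred in a copy. The share was 94.2% for Gapdh, 83.3% for Eno1 (enolase), 62.3% for Bnip3 and 45.6% for Pkm (pyruvate kinase). It was 35.6% for Ldhb, 32.4% for Gpi1, 24.8% for Ldha, 16.8% for Aldoa and 9.67% for Tpi1, and 0 for the other 24 members. The read length was not given in the sources used here, so 50 bases is a scale for comparison only.

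The copies held counts on the scale of the genes themselves. Gapdh had 3136 and 3099 normalized counts in the controls and 1919 and 1935 in Yap CKO on its own row, while its 185 copies with reads summed to 50548 and 44678 in the controls and to 31145 and 28585 in Yap CKO. Some of the 185 are annotated as protein-coding, among them Peli2, Gm10358 and Gm3839. A transcript of Peli2 matched Gapdh over 67.5% of its length, and Peli2 held 1541 and 1428 in the controls and 1379 and 1392 in Yap CKO. Between 93.5% and 94.2% of the joint counts of Gapdh therefore lay on copies. Gapdh-ps15 on the Y chromosome held 937, 617 and 582 in Control 2, Yap CKO 1 and Yap CKO 2, the libraries in which Ddx3y stood at 5.77 to 16.4. The copies held 80.8% to 84.5% of the joint counts for Pgk1, 76.0% to 78.6% for Eno1, 59.4% to 64.6% for Pkm and 57.1% to 61.2% for Gpi1. Where a gene and its copy are identical, reads of the one and of the other cannot be told apart. How the authors treated reads that match several places was not given in the sources used here, and its part in these counts was not tested.

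**Figure D2:**
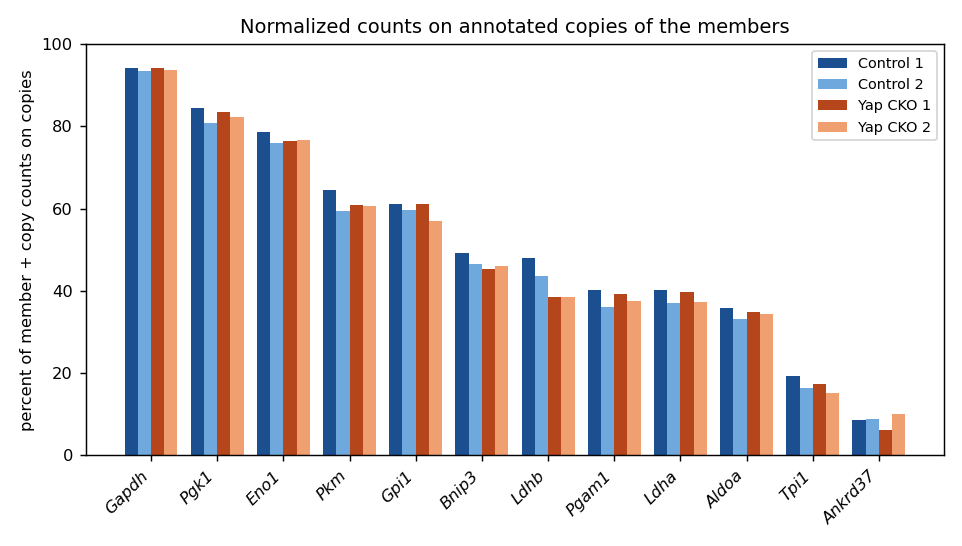
Share of the joint normalized counts of a member and its annotated copies that lay on the copies (vertical axis, percent), for the 12 members with reads on a copy, 1 bar per library. The share is near 94% for Gapdh and at most 19.3% for Tpi1 and 10.1% for Ankrd37, and its range over the 4 libraries is widest for Ldhb (38.5% to 47.9%).

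Glucose enters the cell through Slc2a1 (GLUT1) and Slc2a3 (GLUT3), and lactate leaves it through Slc16a3 (MCT4). Slc2a1 stood at 4778 and 2847 normalized counts in the controls and at 2565 and 2255 in Yap CKO, with a log2 difference of -0.62 ± 0.23 SE (adjusted p = 0.221, limma). Both controls were above both knockouts, but Control 1 was 1.68 times Control 2. Slc16a3 reached 3583 in Control 1, against 1135 in Control 2 and 1375 and 996 in Yap CKO (-0.78 ± 0.48, adjusted p = 0.443). The high value was that of Control 1 alone, 3.16 times Control 2, which lay between the 2 knockouts. Slc2a3 was measured at 845, 489, 624 and 559 in the same order, again highest in Control 1.

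The first steps of glycolysis trap glucose and prepare it for cleavage. Hexokinase 1 (Hk1), the constitutive isoform, stood at 1394 and 1635 in the controls and at 1059 and 994 in Yap CKO (-0.56 ± 0.11, unadjusted p = 0.00206, adjusted p = 0.0656). The groups did not overlap, and Control 2 was the higher control. Against Control 2 alone the difference was -0.67, and against Control 1 alone it was -0.44. Hexokinase 2 (Hk2), the isoform that HIF induces, reached 2662 in Control 1, against 1290 in Control 2 and 1389 and 1391 in Yap CKO. The 2 isoforms thus differed in which library was high: per kilobase of exon, Hk2 was 2.73 times Hk1 in Control 1, 1.13 times in Control 2, and 1.87 and 2.00 times in Yap CKO. Glucose phosphate isomerase (Gpi1) stood at 3771 and 3197 against 2532 and 2649 (-0.42 ± 0.11, adjusted p = 0.11), with no overlap.

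Phosphofructokinase commits the sugar to glycolysis and exists as liver (Pfkl), muscle (Pfkm) and platelet (Pfkp) isoforms. Pfkl reached 6405 in Control 1, against 3085 in Control 2 and 3127 and 2880 in Yap CKO, so that only Control 1 was high. Pfkm was nearly level, at 1121, 1107, 1090 and 1030. Pfkp stood at 924 and 794 against 699 and 655 (-0.34 ± 0.12, adjusted p = 0.197), with both controls above both knockouts. Per kilobase, Pfkl made up 70.3% of the 3 isoforms in Control 1 and 54.2% to 55.3% in the other 3 libraries.

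Aldolase cleaves the hexose. Aldoa, the main isoform, stood at 11024 and 7692 in the controls and at 5981 and 4814 in Yap CKO (-0.78 ± 0.19, adjusted p = 0.0983). The groups did not overlap. With the replicate number as a block the adjusted p was 0.0261. Aldoc, the isoform of brain, was low, at 168, 99.4, 104 and 74.6, with Control 1 highest.

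From triose phosphate to lactate, 7 of 9 genes had both controls above both knockouts, as did 25.6% of all genes tested. Tpi1 (triose phosphate isomerase) stood at 7149 and 4424 against 3852 and 3578 (-0.60 ± 0.21, adjusted p = 0.202). Gapdh, given above, differed by -0.69 ± 0.09 (1.62-fold lower, unadjusted p = 1.17e-04, adjusted p = 0.0177), and its 2 controls differed by a factor of only 1.01. It was the steadiest of these genes within the groups, at 3117 ± 26.1 and 1927 ± 11.4 (SD, n = 2), and a small spread favours a call. Because the controls were so close, its difference was -0.69 against Control 2 alone and -0.70 against Control 1 alone. With its copies added, Gapdh came to 53684 and 47777 in the controls and to 33064 and 30520 in Yap CKO, a difference of -0.67 ± 0.13 with an adjusted p of 0.0547. Without Peli2 among the copies the difference was -0.69 and the adjusted p 0.0502, so the call was lost by a small margin. It was also lost without Yap CKO 1 (adjusted p = 0.263), without Yap CKO 2 (0.186), without the filter on low values (0.0626) and without the intensity trend of limma (0.114), where the difference stayed between -0.69 and -0.70.

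Pgk1, an X-linked gene, stood at 2205 and 1473 against 1234 and 1247 (-0.54 ± 0.18, adjusted p = 0.19). With its copies it came to 14208, 7663, 7412 and 7025, where Control 2 lay close to the knockouts. Pgam1 stood at 4884 and 3494 against 2979 and 2745 (-0.53 ± 0.16, adjusted p = 0.153). For both genes Control 1 was the high library, Pgk1 by a factor of 1.496 and Pgam1 by 1.40 over Control 2.

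Enolase differed between its isoforms. Eno1, the ubiquitous form, stood at 6409 and 4348 in the controls and at 3401 and 3148 in Yap CKO (-0.69 ± 0.18, adjusted p = 0.112), or at 30017, 18125, 14488 and 13533 with its copies (-0.74, adjusted p = 0.157). Eno2, the form of neurons and neuroendocrine cells, was the other way round, at 220 and 147 in the controls and 257 and 246 in Yap CKO (0.48 ± 0.22, adjusted p = 0.298). The ratio of Eno1 to Eno2 per kilobase was 25.5 and 25.8 in the controls and 11.6 and 11.2 in Yap CKO, with the 2 libraries of each group close together. With copies of Eno1 included it was 119 and 108 against 49.4 and 48.1. An exact permutation test of 2 against 2 libraries cannot give a two-sided p below 0.333, and this ratio was picked among 12 after its values were seen, so it is given as a description.

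Pyruvate kinase (Pkm, whose spliced forms M1 and M2 were counted together) stood at 11856 and 9151 against 7854 and 7442 (-0.45 ± 0.14, adjusted p = 0.16). Ldha, the lactate-forming subunit of lactate dehydrogenase, stood at 10871 and 7161 against 6592 and 5978 (-0.49 ± 0.19, adjusted p = 0.24). Both genes had their highest value in Control 1 and no overlap between the groups. Ldhb, the subunit of oxidative tissues such as the heart, stood at 389, 490, 448 and 421 (-0.006 ± 0.15, adjusted p = 0.987, limma). It was highest in Control 2, the library with the highest sum of heart markers, but the part of heart tissue in its values was not tested. The sign of the Ldhb difference turned under other scalings. Per kilobase, Ldha was 13.3 times Ldhb in Control 1 and 6.73 to 6.98 times in the other 3 libraries.

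Kinases set the flux. Pdk1 and Pdk3 phosphorylate pyruvate dehydrogenase and keep pyruvate out of the mitochondrion. Pdk1, a HIF target, reached 3267 in Control 1, against 1658 in Control 2 and 1658 and 1445 in Yap CKO (-0.59 ± 0.29, adjusted p = 0.336). Pdk3, on the X chromosome, stood at 1206 and 1272 against 875 and 975 (-0.42 ± 0.10, adjusted p = 0.1001), with no overlap, and its controls had a ratio of 0.948. Pfkfb3 and Pfkfb4 make and break fructose 2,6-bisphosphate, the activator of phosphofructokinase. Pfkfb3 stood at 3410, 2023, 2527 and 2419, again with only Control 1 high. Pfkfb4 was among the 3 members with both controls below both knockouts, at 271 and 212 against 356 and 274 (0.38 ± 0.19, adjusted p = 0.356).

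Among the oxygen sensors and HIF subunits, Egln1 (PHD2), the main prolyl hydroxylase, stood at 2572 and 1967 in the controls and at 1470 and 1549 in Yap CKO (-0.58 ± 0.14, adjusted p = 0.0976), with no overlap. Egln3 (PHD3), itself strongly induced by HIF, reached 1128 in Control 1, against 602 in Control 2 and 604 and 596 in Yap CKO. Hif1a mRNA differed little, at 4091, 4552, 3828 and 4022 (-0.14 ± 0.10, adjusted p = 0.504). Epas1 (HIF-2 alpha), which endothelium expresses strongly, stood at 1399 and 1256 against 1084 and 1086 (-0.29 ± 0.10, adjusted p = 0.196). The 10 endothelial markers summed to 20896 and 22981 in the controls and to 22153 and 21533 in Yap CKO, with overlapping groups.

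Of the 7 remaining hypoxia targets 0 had both controls above both knockouts, where 25.6% of all genes did. Ankrd37, a small ankyrin repeat protein induced by HIF, reached 213 in Control 1, against 84.2 in Control 2 and 87.5 and 66.2 in Yap CKO (-0.81 ± 0.43, adjusted p = 0.372). Bnip3, a mitophagy receptor, stood at 830, 305, 380 and 333, which makes Control 1 2.72 times Control 2. Control 2 lay below both knockouts for Bnip3, as it did for 11 of the 35 members.

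The collagen prolyl hydroxylase subunits P4ha1 (2999, 1509, 1768 and 1688) and P4ha2 (825, 442, 533 and 480) followed the same order, Control 1 high and Control 2 lowest. Ndrg1, a stress-induced gene, was measured at 457, 225, 352 and 251. Vegfa, the angiogenic factor, stood at 5211, 2833, 3900 and 3601 (-0.04 ± 0.26, adjusted p = 0.958). Its sign depended on the control used and on the scaling. The difference was 0.40 against Control 2 alone and -0.48 against Control 1 alone. Adm, the vasodilator adrenomedullin, was low and ran against the others, at 39.7, 52.6, 69.2 and 55.0 (0.42 ± 0.28, adjusted p = 0.474).

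**Figure D3:**
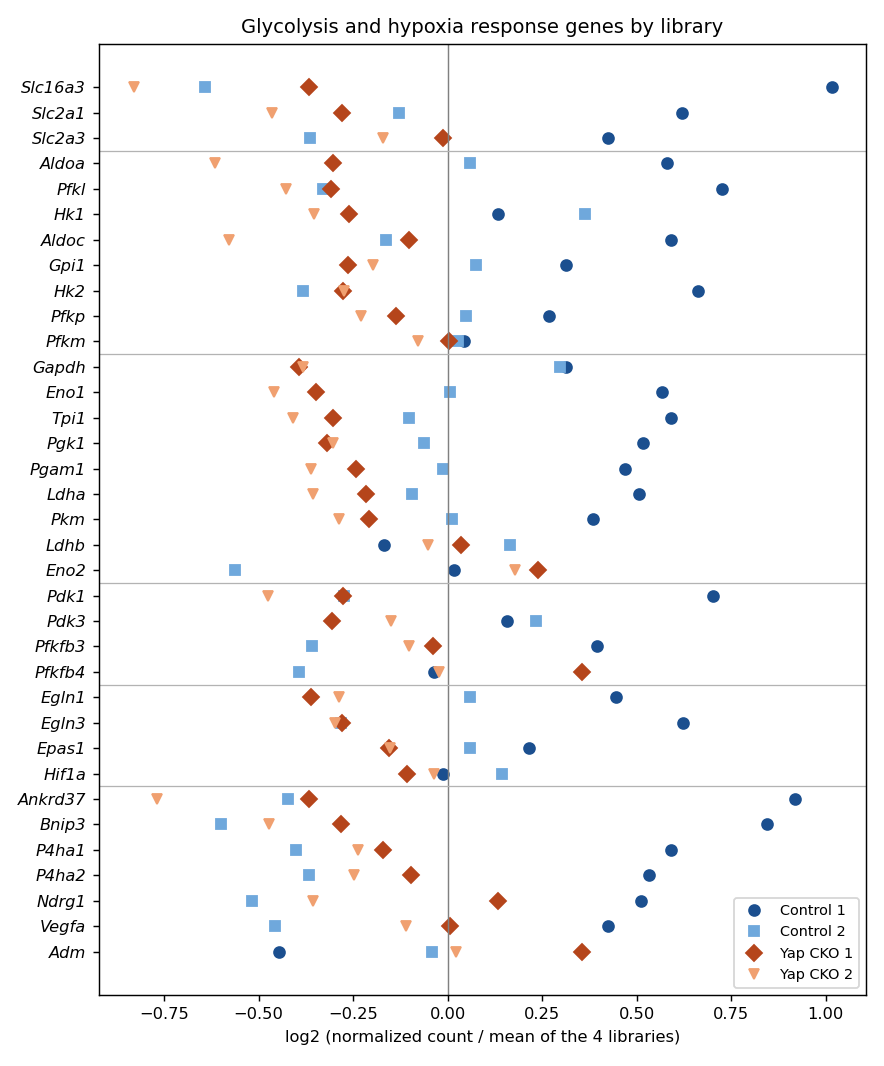
Normalized count of each member in each library, as log2 of its ratio to the mean of the 4 libraries (horizontal axis), grouped by role between the grey lines. Control 1 (dark circles) lies to the right of the other 3 libraries for 28 of 35 members, for Gapdh only by a small margin. Gapdh, Hk1 and Pdk3 have both controls together on the right.

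Over all 35 members, Control 1 was at least 1.5 times Control 2 for 17 (48.6%), against 7.10% of all genes tested. It was the highest of the 4 libraries for 28 (80.0%), against 29.4%. The 2 knockouts did not differ by 1.5 times for any member, with ratios of Yap CKO 1 to Yap CKO 2 from 0.897 to 1.40, while the ratio of the controls ran from 0.755 to 3.16. The sum of the 35 rows made up 0.542% and 0.367% of all normalized counts in the 2 controls and 0.347% and 0.321% in the 2 knockouts.

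Read without overlap, 18 members (51.4%) had both controls above both knockouts, against 25.6% of all genes tested. 3 members (Eno2, Pfkfb4 and Adm) had both below, against 25.2%. The 14 others overlapped, and in 13 of these Control 1 was the highest library, the exception being Ldhb. Among the 23 members with no reads on a copy, 9 had both controls higher, 3 had both lower and 11 overlapped, with a median log2 difference of -0.30.

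The median log2 difference of the 35 members was -0.17 against Control 2 alone and -0.70 against Control 1 alone. Against Control 2 alone 6 members fell and 2 rose (limma, adjusted p under 0.05), where 6.17% of all genes fell and 6.46% rose, so the 2 rises are near the share over all genes. Against Control 1 alone 27 fell and 0 rose, where 6.48% of all genes fell and 6.14% rose. In such fits 1 library stands for the control group and is assumed to vary as the knockouts do. The 2 controls differed more from each other (chi-square per degree of freedom 22.1) than the 2 knockouts did (6.64). The 6 that fell against Control 2 alone were Hk1, Aldoa, Gapdh, Eno1, Pdk3 and Egln1, and the 2 that rose were Eno2 and Vegfa. All 6 except Pdk3 also fell against Control 1 alone, where Pdk3 stood at -0.39.

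**Figure D4:**
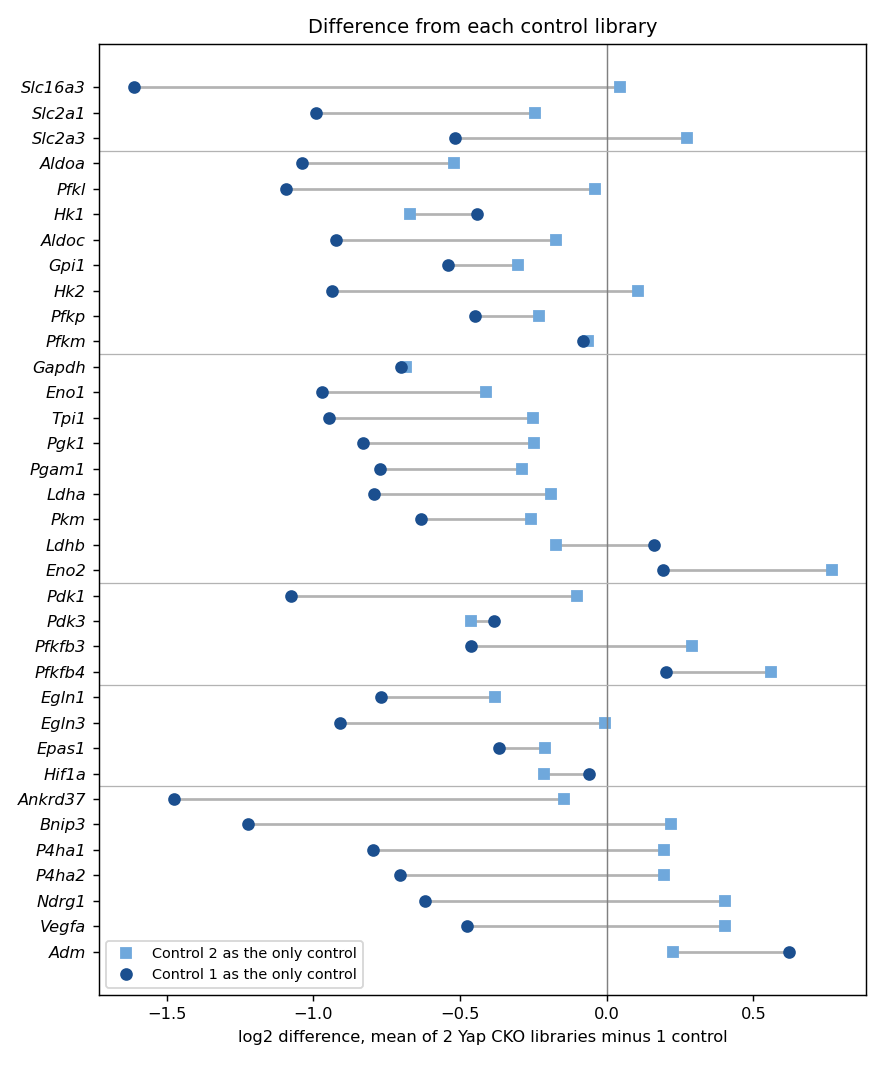
Log2 difference of the mean of both Yap CKO libraries from each control library by itself (horizontal axis), for Control 1 (circles) and Control 2 (squares), with members grouped by role between the grey lines. The 2 points nearly coincide for Gapdh (-0.70 and -0.69) and lie on both sides of 0 for Slc16a3 (-1.61 and 0.044), Bnip3 (-1.22 and 0.22) and Vegfa (-0.48 and 0.40).

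By level per kilobase of exon, averaged over the 4 libraries (mean ± SD, n = 4), Aldoa (2535 ± 928 normalized counts per kilobase) and Ldha (2311 ± 665) came first. Pkm (1815 ± 398), Pgam1 (1779 ± 483) and Tpi1 (1726 ± 595) followed, and the ranges of 1 SD of these 5 overlapped. Vegfa (907 ± 231) and Slc2a1 (887.5 ± 324) came next. This order holds for the genes' own rows only. With the counts on copies added, Gapdh (9983 ± 2721) came first, followed by Pkm (4747 ± 1338), Pgk1 (4045 ± 1529), Aldoa (3888 ± 1471), Ldha (3774 ± 1165) and Eno1 (3540 ± 1409), and the ranges of 1 SD of the latter 5 overlapped. Aldoc (34.1 ± 12.2) and Adm (33.4 ± 7.46) were the lowest. The length used is that of all annotated exons, retained introns included, which lowers the per-kilobase level of genes with many transcript models.

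The start regions of the members were searched for the core of the hypoxia response element, ACGTG or GCGTG on either strand. The window ran from 250 bases before to 50 after each start in the RefSeq annotation of GRCm38.p6. 32 of the 35 genes had an entry, with 46 starts in all, and no start was found for Slc2a3, Epas1 and Ndrg1. The core occurred at 37 of the 46 (80.4%), against 43.8% of all 32851 start regions, and the form ACGTG alone, on either strand, at 54.3% against 19.6%. A match is a description of the letters and not a HIF site. The core holds the pair CG, and the regions compared were not matched for base composition, whose part in these shares was not tested. Some start regions of Eno1, Aldoa and Pfkm overlap, so the same match can be counted more than once. 5 examples follow, each the 160 bases before a start, 5′ to 3′ on the gene's strand, with the core in capitals. Slc16a3 (chr11:120948907-120949066, plus strand) and Ankrd37 (chr8:45999851-46000010, minus strand) are shown as members in which Control 1 alone was high. Ldha (chr7:46845644-46845803, plus strand; of its 2 starts the one with more matches, as the window of the other holds 1) and Pgk1 (chrX:106186940-106187099, plus strand) are classical HIF targets of this set, and Gapdh (chr6:125165774-125165933, minus strand) is the member that passed the test.
Slc16a3: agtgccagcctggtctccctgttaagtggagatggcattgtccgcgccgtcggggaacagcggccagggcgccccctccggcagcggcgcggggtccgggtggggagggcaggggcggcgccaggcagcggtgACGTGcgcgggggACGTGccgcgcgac
Ankrd37: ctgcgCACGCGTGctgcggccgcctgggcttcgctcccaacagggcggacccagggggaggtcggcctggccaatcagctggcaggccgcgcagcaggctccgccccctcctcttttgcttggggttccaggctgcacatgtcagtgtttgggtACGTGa
Ldha: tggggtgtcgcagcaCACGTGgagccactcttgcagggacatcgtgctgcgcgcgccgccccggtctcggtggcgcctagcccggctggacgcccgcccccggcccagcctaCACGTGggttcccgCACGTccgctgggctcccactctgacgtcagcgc
Pgk1: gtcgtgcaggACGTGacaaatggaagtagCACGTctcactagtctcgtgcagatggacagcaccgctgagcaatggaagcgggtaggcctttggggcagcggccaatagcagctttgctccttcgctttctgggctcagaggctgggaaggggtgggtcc
Gapdh: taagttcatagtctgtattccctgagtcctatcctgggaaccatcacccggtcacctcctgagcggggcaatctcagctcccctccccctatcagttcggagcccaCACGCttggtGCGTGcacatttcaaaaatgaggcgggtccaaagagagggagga

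In the window of Slc16a3 the core stands in 2 places, and in that of Ldha 3 stretches hold it, 2 of them as the palindrome CACGTG, which reads the same on both strands. Gapdh has it as GCGTG and as CACGC, the same letters on the other strand. Slc16a3 and Ankrd37, in which Control 1 alone was high, hold the core, and so does Gapdh, whose controls were level. The core was found for 29 of the 32 genes (90.6%), against 46.7% of all genes, so these examples contrast nothing. Tpi1, Gpi1 and Eno2 had no match.

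Genes next to these in the same pathways were counted from lists of named genes. None of the 24 tested isozymes and neighbours of glycolysis passed in limma, edgeR or DESeq2 (4 lower and 2 higher at an unadjusted limma p under 0.05). Their median log2 difference was -0.16, with 6 of 24 (25.0%) having both controls above both knockouts, near the 25.6% of all genes tested. 2 genes of this list are named after their values were seen. Pklr, the pyruvate kinase of liver and red cells, reached 185 in Control 1, against 11.7 in Control 2 and 24.0 and 18.6 in Yap CKO. The 12 red cell markers summed to 113932 and 156375 in the controls and to 87267 and 114369 in Yap CKO, and Control 1 was the highest library for 7 of these 12; their part in the value of Pklr was not tested. Pgam2, the muscle phosphoglycerate mutase, ran with the heart markers, at 26.2 and 515 in the controls and 137 and 42.9 in Yap CKO. None of 7 genes of the pentose phosphate branch passed in any of these 3 tools (2 lower and 0 higher unadjusted), with a median of -0.11.

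Of 27 genes of pyruvate entry and the citric acid cycle none passed in limma or edgeR and 1 fell in DESeq2, Mdh1 (5 lower and 1 higher unadjusted), with a median of -0.08. In these, Control 1 was at least 1.5 times Control 2 for 0 genes, and it was the highest library for 3 of 27 (11.1%). It was the highest for 5 of the 7 pentose phosphate genes (71.4%), for 6 of the 24 isozymes and neighbours (25.0%) and for 28 of the 35 members (80.0%), where the share over all genes was 29.4%. The median ratio of Control 1 to Control 2 was 0.877 in this list, 1.496 over the 35 members and 1.02 over all genes tested.

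Of 12 genes of the oxygen sensing machinery beyond the members, among them Vhl, Arnt and Egln2, none passed in any of the 3 tools and 0 had an unadjusted p under 0.05, with a median of 0.007. Of 39 tested further hypoxia-inducible genes 1 fell and 38 did not pass in limma (8 lower and 3 higher unadjusted), with a median of -0.10. DESeq2 called 4 falls (Mif, Stc2, Lox and Loxl2) and 1 rise (Wsb1), where 3.02% of all genes fell and 2.25% rose, so the 1 rise of 39 is near the share over all genes. The 1 fall in limma was Mif, the cytokine macrophage migration inhibitory factor, at 2739 and 2329 in the controls and 1608 and 1567 in Yap CKO (-0.67 ± 0.11, adjusted p = 0.0363). Copies of Mif were not searched. Control 1 was the highest library for 24 of these 39 (61.5%) and at least 1.5 times Control 2 for 7 (17.9%). Among the 7, chosen after their values were seen, were the mTOR inhibitor Ddit4 (3179, 1371, 1541 and 1222) and the secreted Stc2 (397, 180, 129 and 132).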

How the data were processed

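Per the labels' protocols, RNA was extracted from whole lung with RNeasy columns and libraries were made by the standard BGI protocol. The deposited table holds a normalized count per Ensembl gene, a signal that the authors had scaled by dividing each library by 1 factor. Per the submitters' processing notes, Bowtie2 2.2.9, featureCounts 1.5.0-p1, DESeq 1.16.0 and edgeR 3.18.1 were used with mm10; roles, the annotation release, strand setting and treatment of reads matching several places were not given in the sources used here. All values were whole multiples of 1 number per library (100% within 0.001 reads), so whole reads were recovered.

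Genes with a mean of at least 10 normalized counts (19472, all 35 members among them) were tested on log2(normalized count + 1) across all genes with limma 3.58.1 (R 4.3.3; intensity trend, two-sided, Benjamini-Hochberg); log2 differences are on that scale. The step was run on simulated counts with known changes and the same dispersion for every gene. That run checked the size of the estimates and does not show how calls fare at the spread of these libraries. Copies were found with blastn 2.17.0. edgeR 4.0.16 and DESeq2 1.42.0 on recovered reads were alternatives. Within each group the 2 libraries differed beyond counting error (chi-square per degree of freedom 22.1 for controls and 6.64 for Yap CKO). Members called, with an unadjusted p under 0.05, or among the 4 largest or smallest signed differences were named with counts, difference and adjusted p. Hk2, Pfkl, Pdk1, Egln3, Bnip3 and Vegfa were added after their values were seen. Of these, Hk2, Pfkl, Egln3 and Bnip3 were given without the result of the group test. From other lists genes called by limma were named, and those that DESeq2 alone called were added afterwards. Members and lists were chosen with earlier results of these data known.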

Additional observations from a re-analysis of the deposited data

How the results depend on the processing

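Depth did not limit the members, whose lowest mean was 54.1 normalized counts, but 2 libraries per group limit the test. The count of all genes called was 454. It was 56 without a filter on low values, 6 without the intensity trend and 1027 with DESeq2, and 2 to 2459 with 1 library left out. Of the members 1 fell (Gapdh). The number was 0 without the filter, without the trend and with the copies found by sequence added with or without Peli2 (alternatives chosen after seeing the data), 2 with the replicate block (Aldoa and Gapdh), 9 with DESeq2 and 0 to 27 with 1 library left out, being 6 without Control 1, 27 without Control 2 and 0 without either Yap CKO library. The adjusted p of Gapdh was 0.0626 without the filter, 0.114 without the trend, 0.0547 with the copies, 0.0502 with the copies but Peli2, 0.263 without Yap CKO 1 and 0.186 without Yap CKO 2. Between 0 and 2 members rose with 1 library left out. The causes of these differences were not tested.

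The sign turned for 2 members under equal totals and under quantile normalization, Ldhb (0.056 and 0.018) and Vegfa (0.026 and 0.024). Under equal totals 62.0% of all calls were rises, against 50.9% as deposited, and the median of all genes moved by under 0.1 (log2). With 1 library left out, the log2 difference ran from -0.52 to 0.27 for Slc2a3, -0.94 to 0.11 for Hk2, -1.61 to 0.044 for Slc16a3, -0.17 to 0.16 for Ldhb and -0.46 to 0.29 for Pfkfb3. It ran from -0.48 to 0.40 for Vegfa, -1.22 to 0.22 for Bnip3, -0.62 to 0.40 for Ndrg1, -0.80 to 0.20 for P4ha1 and -0.70 to 0.19 for P4ha2. The ends are the fits without Control 2 and without Control 1, in the reverse order for Ldhb. The other 25 members kept their sign in every alternative.

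The labels number the replicates 1 and 2 in both groups but do not say what the numbers share, and the deviations of same-numbered libraries had a correlation of -0.36. The replicate block gave 342 calls among all genes and added Aldoa (adjusted p = 0.0261).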
